A study of Mus musculus with 6 samples.

Results

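The oligodendrocyte lineage and myelin genes were 30 genes picked by name from the counts table of adult mouse brain, and all 30 were among its 53801 rows. They were read in 3 groups: 6 precursor genes, 5 lineage transcription factors and 19 myelin genes. RNA was sequenced from hemibrains of male C57BL/6 mice about 70 weeks old, 3 Bahd1-WT mice (genotype Bahd1+/+) and 3 Bahd1-KO mice (genotype Bahd1-/-). BAHD1 is a heterochromatin protein found in complexes with histone deacetylases, and the comparison asked how its loss alters gene expression in the brain. The deletion was constitutive, so it was present in every cell type and from conception, and the study describes perinatal death among homozygotes, so the Bahd1-KO brains came from survivors. The labels name no treatment in either group. The Bahd1 gene itself had 844 to 1383 counts in Bahd1-WT libraries and 0 to 14 in Bahd1-KO libraries. Library totals ran from 42297150 to 93557948 counts, and all 30 members were among the 23975 genes tested.

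Oligodendrocytes arise from precursor cells that carry the PDGF receptor alpha on their surface and divide in the adult brain. As a precursor differentiates, it stops dividing, passes through a short premyelinating stage, and turns on the genes of the myelin sheath, the stacked membrane that insulates axons. SOX10 and the OLIG proteins are present throughout the lineage, whereas MYRF, which SOX10 turns on, drives the myelin genes at the last step. In a hemibrain, fewer oligodendrocytes and less RNA per oligodendrocyte cannot be told apart.

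In these libraries fold changes between the genotypes ran with the GC content of transcripts, across the 13283 expressed genes (mean log2 CPM above 1) as among the members. Levels are given as CPM, counts scaled by the library total and its TMM factor. The GC content of the longest annotated transcript ran from 38.0% for Ugt8a to 64.3% for Nkx6-2. The first 120 coding bases of these outermost members are shown because the base composition that separates them can be read from them, with CG dinucleotides in capitals (GRCm38, both on the minus strand, chr3:125915340-125915459 and chr7:139582420-139582539):

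Ugt8a: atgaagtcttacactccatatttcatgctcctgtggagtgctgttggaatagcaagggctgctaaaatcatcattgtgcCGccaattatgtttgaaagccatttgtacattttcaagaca

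Nkx6-2: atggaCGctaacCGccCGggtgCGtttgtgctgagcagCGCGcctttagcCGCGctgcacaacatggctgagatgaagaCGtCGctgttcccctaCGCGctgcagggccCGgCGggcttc

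The Ugt8a stretch held 1 CG dinucleotide and 40.0% GC, and the Nkx6-2 stretch held 14 and 65.8%. Because fold changes ran with GC content, members are given with 2 values. These are the log2 fold change of the counts as they stand and the log2 fold change with a GC and length offset. The offset removes from each library the smooth trend of its values with the GC content of the longest transcript and the exon length of the gene. The log2 fold change is Bahd1-KO over Bahd1-WT, with its standard error (SE).

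By the quasi-likelihood test of edgeR, 0 of the 30 members passed an adjusted p of 0.05 in either direction, as did 0.00417% of all genes tested in each direction. DESeq2's Wald test called 10 members higher and 0 lower at this threshold, against 17.7% and 3.56% of the genes to which it gave an adjusted p. Without correction for multiple tests, 11 members in edgeR were higher and 3 lower at a p under 0.05, against 19.9% and 12% of all genes. At an adjusted p under 0.1, 10 members were higher and 1 was lower, against 14.7% and 4.77% of all genes tested and 20.8% and 4.74% of expressed genes. The 10 were Nkx6-2, Sox10, Myrf, Cspg4, Trf, Mag, Gjb1, Mbp, Fa2h and Cnp, all with a GC content of 51% or more, and the 1 lower was Mal. Among the 19 members with a GC content of at least 50%, 10 were higher at this threshold, and among expressed genes of that GC content the shares were 43.4% higher and 0.0489% lower. The count at an adjusted p under 0.1 rested on several libraries. Without Bahd1-WT replicate 1, 2 or 3 or without Bahd1-KO replicate 3 it was 0 in both directions, and in each of these fits at most 3 of all genes passed in either direction. Without Bahd1-KO replicate 2 it was 6 higher and 0 lower, against 8.94% and 2.27% of genes, and without Bahd1-KO replicate 1 it was 13 higher and 3 lower, against 23.9% and 17.3%. The values of the 3 Bahd1-WT and 3 Bahd1-KO brains did not overlap for 11 members that were higher and 3 that were lower, against 20.6% and 19.3% of all genes tested.

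**Figure D1:**
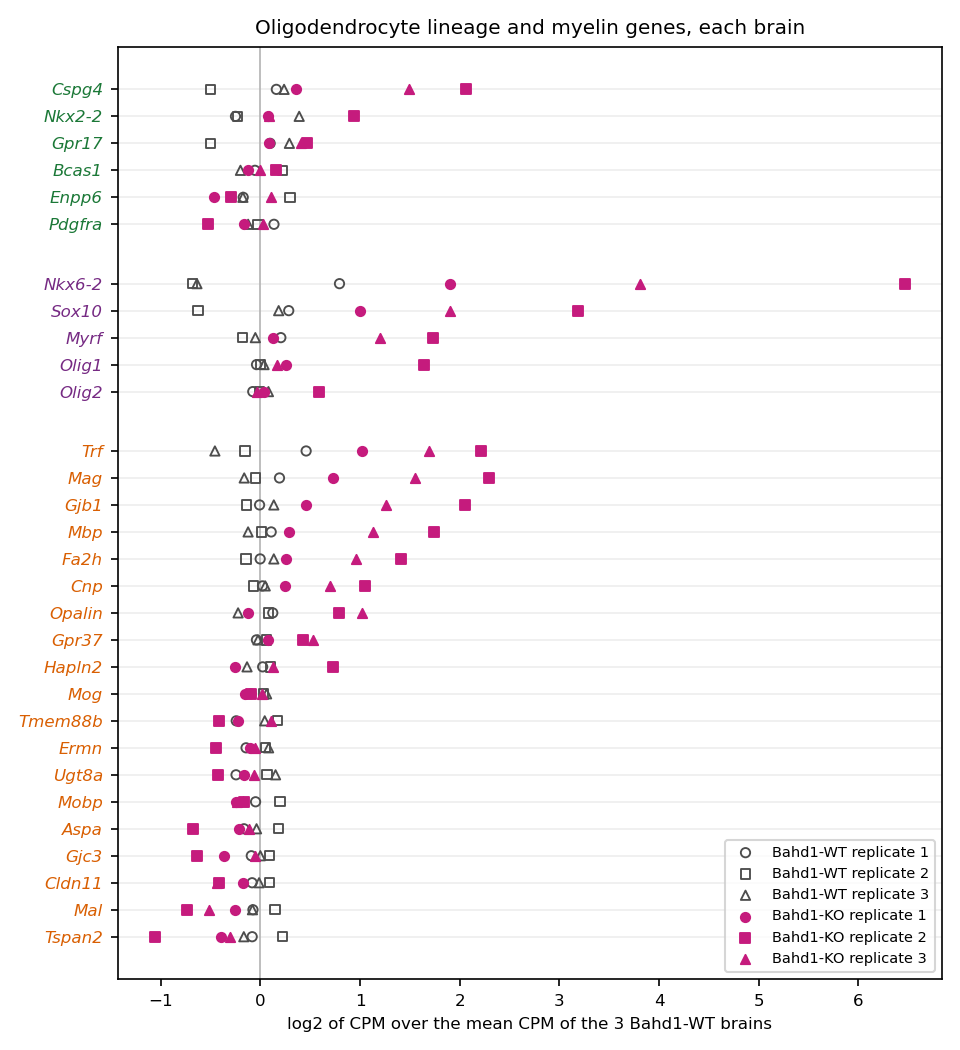
Log2 of each brain's CPM over the mean CPM of the 3 Bahd1-WT brains (x axis) for the 30 members (y axis), with the names of precursor genes in green, of lineage transcription factors in purple and of myelin genes in orange. Open symbols are Bahd1-WT brains and filled symbols Bahd1-KO brains, and Bahd1-KO replicate 2 (filled squares) was the highest for 10 of the 11 members that were higher without overlap, all but Gpr37.

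With the GC and length offset, edgeR again called 0 members at an adjusted p under 0.05, against 0.00835% of genes in each direction, and at an unadjusted p under 0.05 it had 9 higher and 6 lower, against 9.89% and 11.4%. At an adjusted p under 0.1, 5 members were higher (Nkx6-2, Sox10, Trf, Mbp and Mag) and 6 lower (Olig1, Olig2, Hapln2, Mobp, Cldn11 and Mal), against 3.61% and 2.38% of genes. DESeq2 with the offset called 7 higher and 6 lower at an adjusted p under 0.05, against 7.39% and 4.73%. The median log2 fold change of the 30 members was 0.29 without the offset and 0.04 with it, beside medians of -0.06 over all genes tested in both fits. When Bahd1-KO replicate 2 was also left out, an alternative chosen after the data were seen, no member had an adjusted p under 0.1 in edgeR, while 8 were higher and 6 lower at an unadjusted p under 0.05, against 6.76% and 7.34% of genes.

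**Figure D2:**
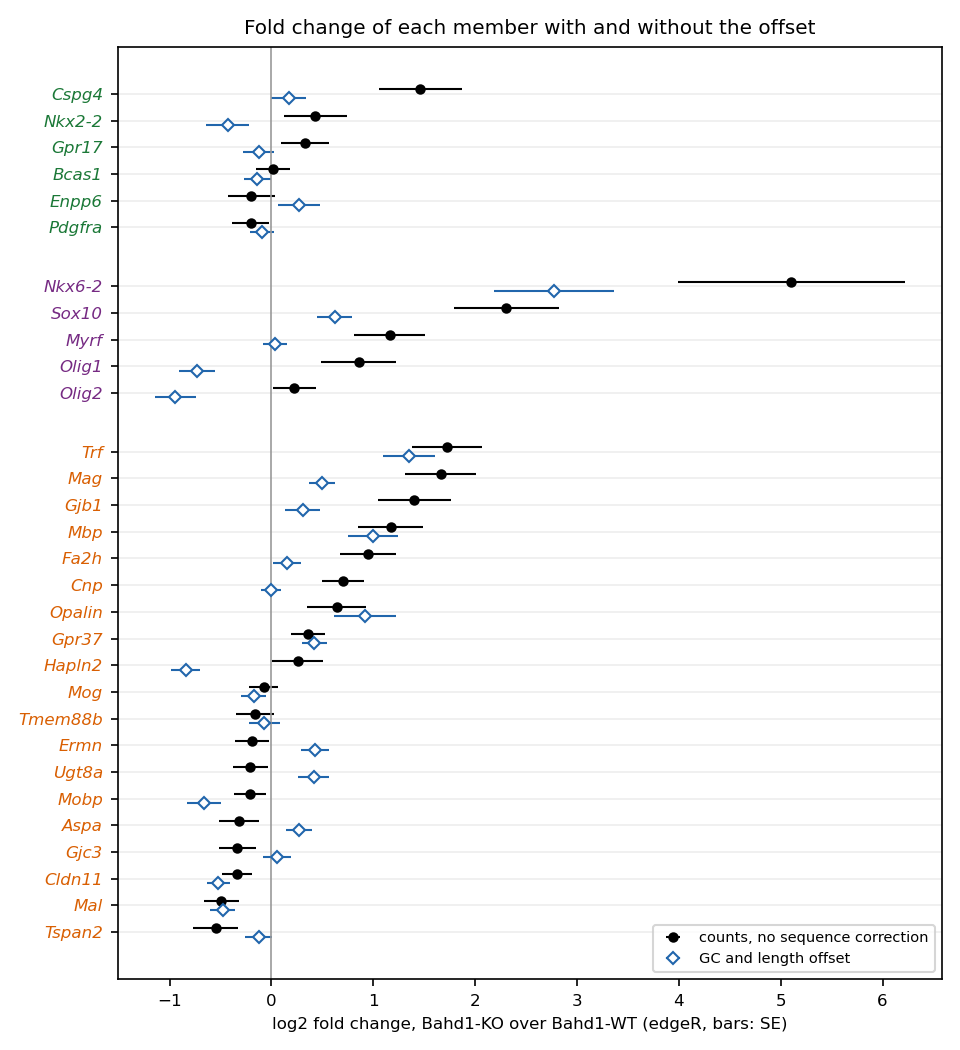
Log2 fold change of each member, Bahd1-KO over Bahd1-WT (x axis), from the counts as they stand (black circles) and with the GC and length offset (open blue diamonds), with bars of 1 SE. Nkx6-2, Sox10, Mag, Mbp and Trf lay above 0 in both, Cldn11 and Mal below 0 in both, and Olig1, Olig2 and Hapln2 moved from above 0 to below 0.

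The precursor genes gave no common direction. Pdgfra (chr5:75152292-75198215), the receptor through which PDGF keeps precursors dividing, had 89.5, 80.2 and 74.8 CPM in Bahd1-WT brains and 72.5, 56.5 and 83.2 CPM in Bahd1-KO brains. The groups overlapped, with a log2 fold change of -0.21 (SE 0.18, adjusted p = 0.446 in edgeR) and of -0.10 with the offset. Cspg4 (chr9:56865033-56899870), which encodes the NG2 proteoglycan on the precursor surface, had 3.54, 2.24 and 3.74 CPM in Bahd1-WT brains and 4.07, 13.2 and 8.91 CPM in Bahd1-KO brains. Every Bahd1-KO brain was above every Bahd1-WT brain, but Bahd1-KO replicate 1 only just. Its log2 fold change of 1.46 (SE 0.41, adjusted p = 0.0669 in edgeR, 0.00317 in DESeq2) became 0.17 (SE 0.17, adjusted p = 0.625) with the offset. Cspg4 is also expressed by pericytes, and among 5 markers of pericytes and smooth muscle Acta2 was higher without overlap (log2 fold change 0.91, SE 0.24, adjusted p = 0.0647 in edgeR, and 0.87 with the offset), Pdgfrb had 0.86 (SE 0.30) and 0.16 with the offset, and Rgs5, the most abundant, had -0.46 (SE 0.22) and 0.0052. The part of these cells in the values of Cspg4 was not tested.

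The other 4 genes of this group mark precursors that have begun to differentiate, and the groups overlapped for each. Gpr17 encodes a receptor of the premyelinating stage and Bcas1 a protein of early myelinating cells. Gpr17 had 15.9 to 27.4 CPM in the Bahd1-WT group against 23.8 to 31.1 CPM, with log2 fold changes of 0.33 (SE 0.23) and, with the offset, -0.13 (SE 0.16). Bcas1 had 301 to 404 CPM against 318 to 385 CPM, with log2 fold changes of 0.01 (SE 0.17) and -0.14 (SE 0.13). Enpp6, a choline phosphodiesterase of newly formed oligodendrocytes, had 13.0 to 18.1 CPM against 10.6 to 15.8 CPM, with log2 fold changes of -0.20 (SE 0.23) and, with the offset, 0.27 (SE 0.21). Nkx2-2, a transcription factor of the transition out of the precursor state, had 3.34, 3.38 and 5.21 CPM in Bahd1-WT brains and 4.18, 7.62 and 4.23 CPM in Bahd1-KO brains. Bahd1-KO replicate 2 alone lay outside the Bahd1-WT range, and the log2 fold change was 0.43 (SE 0.31) without and -0.43 (SE 0.21) with the offset. For the 6 precursor genes the median log2 fold change was 0.17 without the offset and -0.11 with it. Without Bahd1-KO replicate 2 these medians were 0.0066 and -0.031.

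The lineage transcription factors spread the most. Nkx6-2 (chr7:139579376-139582797, also called Gtx, a homeodomain factor of mature oligodendrocytes) had 0.404, 0.146 and 0.150 CPM in Bahd1-WT brains and 0.873, 20.6 and 3.26 CPM in Bahd1-KO brains. All 3 Bahd1-KO brains were above the Bahd1-WT brains, and among themselves they differed far more than the Bahd1-WT brains did. The Bahd1-WT values rested on 37, 9 and 11 counts and the Bahd1-KO values on 38, 1961 and 189. The log2 fold change was 5.10 (SE 1.1, adjusted p = 0.0634 in edgeR, 0.000789 in DESeq2), or 34.3-fold. With the offset it was 2.77 (SE 0.59, adjusted p = 0.0782 in edgeR, 0.0079 in DESeq2), or 6.84-fold, the largest of any member in both fits. Without Bahd1-KO replicate 2 the log2 fold changes were 3.12 and, with the offset, 1.96.

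Sox10 (chr15:79154908-79165240) had 9.55, 5.09 and 8.90 CPM in Bahd1-WT brains and 15.7, 71.4 and 29.4 CPM in Bahd1-KO brains. The groups did not overlap, and Bahd1-KO replicate 2 was again the highest and replicate 1 the lowest of its group. The log2 fold change of Sox10 was 1.53 when Bahd1-KO replicate 2 was left out, and 0.52 with the offset. The log2 fold change was 2.31 (SE 0.52, adjusted p = 0.0634 in edgeR, 8.99e-05 in DESeq2), and 0.62 (SE 0.17, adjusted p = 0.0946 in edgeR, 0.0109 in DESeq2) with the offset. Myrf (chr19:10208272-10240748) had 37.4, 28.7 and 31.4 CPM in Bahd1-WT brains and 35.5, 108 and 74.6 CPM in Bahd1-KO brains. Bahd1-KO replicate 1 lay inside the Bahd1-WT range. Its log2 fold change of 1.16 (SE 0.35, adjusted p = 0.0748 in edgeR) was 0.03 (SE 0.12) with the offset, and it was 0.77 without Bahd1-KO replicate 2.

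Olig1 and Olig2, neighbouring genes of basic helix-loop-helix factors (chr16:91269772-91271933 and chr16:91225457-91228677), went the other way with the offset. Olig1 had 44.2, 45.6 and 46.6 CPM in Bahd1-WT brains and 54.3, 141 and 51 CPM in Bahd1-KO brains. Olig2 had 21.5, 22.6 and 24.0 CPM in Bahd1-WT brains and 23.2, 34.1 and 22.2 CPM in Bahd1-KO brains. In both, Bahd1-KO replicate 2 stood apart. The other Bahd1-KO brains were slightly above the Bahd1-WT brains for Olig1 and within their range for Olig2. Olig1 had a log2 fold change of 0.85 (SE 0.36, adjusted p = 0.148 in edgeR) without the offset and of -0.73 (SE 0.17, adjusted p = 0.0818 in edgeR, 0.00431 in DESeq2) with it. Olig2 had one of 0.23 (SE 0.21, adjusted p = 0.462) without the offset and of -0.94 (SE 0.20, adjusted p = 0.0782 in edgeR, 0.000551 in DESeq2) with it. Without Bahd1-KO replicate 2 they were 0.21 and -0.0015 without the offset, and -0.73 and -0.78 with it. The 5 factors have GC contents from 57.6 to 64.3%, where the expressed genes moved most. The median log2 fold change of the 467 expressed genes with 60 to 65% GC was 1.65, and with the offset 0.06. For the 2238 expressed genes with 55 to 60% GC, the range of Myrf and Olig2, it was 1.01, and with the offset -0.0071.

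Among the myelin genes, 9 of 19 had a positive log2 fold change and 10 a negative one, with a median of -0.08, and with the offset 11 were positive and 8 negative, with a median of 0.15. The proteins of compact myelin did not move together. Mbp (chr18:82475146-82585637), the basic protein that holds the cytoplasmic faces of the myelin membrane together, had 1412, 1317 and 1202 CPM in Bahd1-WT brains and 1601, 4373 and 2870 CPM in Bahd1-KO brains. The groups did not overlap, and the log2 fold change was 1.17 (SE 0.32, adjusted p = 0.065 in edgeR, 0.0054 in DESeq2) and 1.00 (SE 0.25, adjusted p = 0.0852 in edgeR, 0.00152 in DESeq2) with the offset. Mbp has a GC content of 51%, and the 3405 expressed genes with 50 to 55% GC had a median log2 fold change of 0.30. Without Bahd1-KO replicate 2 its log2 fold changes were 0.78 and 0.64.

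Mobp (chr9:120149707-120181484), a second basic protein of compact myelin, had 1566, 1855 and 1440 CPM in Bahd1-WT brains and 1363, 1447 and 1380 CPM in Bahd1-KO brains. The ranges just overlapped, and the log2 fold change was -0.21 (SE 0.16, adjusted p = 0.356 in edgeR), or -0.66 (SE 0.17, adjusted p = 0.0871 in edgeR, 0.0083 in DESeq2) with the offset. Mal (chr2:127633226-127656695), a proteolipid of compact myelin, had 517, 602 and 515 CPM in Bahd1-WT brains and 455, 326 and 382 CPM in Bahd1-KO brains. Cldn11 (chr3:31149920-31164324), the claudin of the tight junctions between myelin layers, had 148, 168 and 156 CPM in Bahd1-WT brains and 139, 118 and 116 CPM in Bahd1-KO brains. For both, every Bahd1-KO brain was below every Bahd1-WT brain. The log2 fold change of Mal was -0.49 (SE 0.17, adjusted p = 0.0996 in edgeR, 0.102 in DESeq2) and -0.48 (SE 0.12, adjusted p = 0.0867 in edgeR, 0.0169 in DESeq2) with the offset. For Cldn11 it was -0.34 (SE 0.15, adjusted p = 0.157 in edgeR) and -0.52 (SE 0.11, adjusted p = 0.0782 in edgeR, 0.006 in DESeq2). The log2 fold changes of Mal, Cldn11 and Mobp were thus between -0.66 and -0.21 in both fits, and those of Mbp were 1.17 and 1.00.

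The genes of the inner and outer faces of the sheath also divided. Mag (chr7:30899176-30914873), the sialic acid-binding protein that faces the axon, had 57.5, 48.7 and 45 CPM in Bahd1-WT brains and 83.3, 247 and 148 CPM in Bahd1-KO brains. No value of one group lay within the other, and the log2 fold change was 1.66 (SE 0.35, adjusted p = 0.0634 in edgeR, 0.000197 in DESeq2) and 0.50 (SE 0.13, adjusted p = 0.0876 in edgeR, 0.0128 in DESeq2) with the offset. Mog, the glycoprotein on the outermost surface, had 70.4, 76.7 and 78.5 CPM in Bahd1-WT brains and 67.7, 70.2 and 76.2 CPM in Bahd1-KO brains. The groups overlapped, with log2 fold changes of -0.08 (SE 0.14) and -0.17 (SE 0.12). Cnp, a phosphodiesterase of the cytoplasmic channels of myelin, had 170, 160 and 173 CPM in Bahd1-WT brains and 198, 348 and 272 CPM in Bahd1-KO brains. The groups did not overlap, yet its log2 fold change of 0.70 (SE 0.21, adjusted p = 0.0719 in edgeR, 0.0288 in DESeq2) was -0.0066 (SE 0.10) with the offset.

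Trf (chr9:103204001-103230444), the iron carrier transferrin, which oligodendrocytes make in the brain, had 8.80, 5.75 and 4.66 CPM in Bahd1-WT brains and 13.0, 29.7 and 20.7 CPM in Bahd1-KO brains. Every Bahd1-KO brain was above the Bahd1-WT brains, with a log2 fold change of 1.72 (SE 0.35, adjusted p = 0.0634 in edgeR, 0.000104 in DESeq2) and of 1.35 (SE 0.26, adjusted p = 0.0782 in edgeR, 2.73e-05 in DESeq2) with the offset. The annotation places another gene, Gm20425, on the same strand over 2108 bases, 63.5% of the exon length of Trf, so reads there could not be assigned to either and the level of Trf is uncertain. Transferrin is also made by the choroid plexus, whose markers stand with those of the other cell types.

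Enzymes and channels of the sheath made up most of the rest. Fa2h, which hydroxylates the fatty acids of myelin galactolipids, had 21.3 to 25.8 CPM in Bahd1-WT brains, all below the 28.1 to 62.5 CPM of Bahd1-KO brains, with a log2 fold change of 0.95 (SE 0.27, adjusted p = 0.069 in edgeR, 0.0125 in DESeq2) and of 0.15 (SE 0.13) with the offset. Ugt8a, which adds the galactose to the same lipids, had 79.5 to 105 CPM against 70.2 to 89.9 CPM, with log2 fold changes of -0.21 (SE 0.17) and 0.41 (SE 0.15). Both enzymes act on the same lipid class, and the GC contents of their transcripts, 55.2% and 38.0%, lie far apart. Aspa, the aspartoacylase that frees acetate for lipid synthesis, had 33.5 to 42.7 CPM against 23.4 to 34.6 CPM, with log2 fold changes of -0.32 (SE 0.20) and 0.27 (SE 0.13).

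Gjb1 and Gjc3 encode the connexins Cx32 and Cx29 of oligodendrocytes. Gjb1 had 7.97, 7.29 and 8.79 CPM in Bahd1-WT brains and 11.0, 33.3 and 19.2 CPM in Bahd1-KO brains, without overlap. Its log2 fold change of 1.4 (SE 0.36, adjusted p = 0.0638 in edgeR, 0.00184 in DESeq2) was 0.31 (SE 0.17, adjusted p = 0.335 in edgeR) with the offset, and 0.92 without Bahd1-KO replicate 2. Gjc3 had 73.0 to 82.7 CPM against 49.9 to 74.8 CPM, with overlapping groups and log2 fold changes of -0.34 (SE 0.18) and 0.05 (SE 0.14).

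Of the other 6 myelin genes, Tspan2, a tetraspanin, was lower in every Bahd1-KO brain, at 130 to 220 CPM against 242 to 316 CPM. Its log2 fold change was -0.55 (SE 0.22, adjusted p = 0.133 in edgeR), and -0.13 (SE 0.13) with the offset. Without Bahd1-KO replicate 2 these values were -0.35 and -0.047. Gpr37, a receptor that restrains myelination, was higher in every Bahd1-KO brain, at 74.9 to 103 CPM against 69.2 to 74.4 CPM in Bahd1-WT brains, with log2 fold changes of 0.36 (SE 0.16) and 0.42 (SE 0.12, adjusted p = 0.107 in edgeR, 0.0342 in DESeq2). Hapln2 (chr3:88021750-88027583), a link protein of the matrix at nodes of Ranvier, had 25.4, 26.9 and 22.8 CPM in Bahd1-WT brains and 20.9, 41.5 and 27.2 CPM in Bahd1-KO brains. These overlapped, with a log2 fold change of 0.26 (SE 0.25) that was -0.84 (SE 0.15, adjusted p = 0.0782 in edgeR, 0.000105 in DESeq2) with the offset. Opalin, a glycoprotein of the paranodal loops, had 13.2, 12.8 and 10.4 CPM in Bahd1-WT brains and 11.1, 20.9 and 24.6 CPM in Bahd1-KO brains. Bahd1-KO replicate 1 fell inside the Bahd1-WT range, and the log2 fold change was 0.64 (SE 0.29) and, with the offset, 0.92 (SE 0.31, adjusted p = 0.132 in edgeR, 0.0164 in DESeq2). Ermn and Tmem88b overlapped between the groups, with log2 fold changes of -0.19 (SE 0.16) and -0.16 (SE 0.19), and with 0.42 (SE 0.14) and -0.07 (SE 0.15) with the offset.

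**Figure D3:**
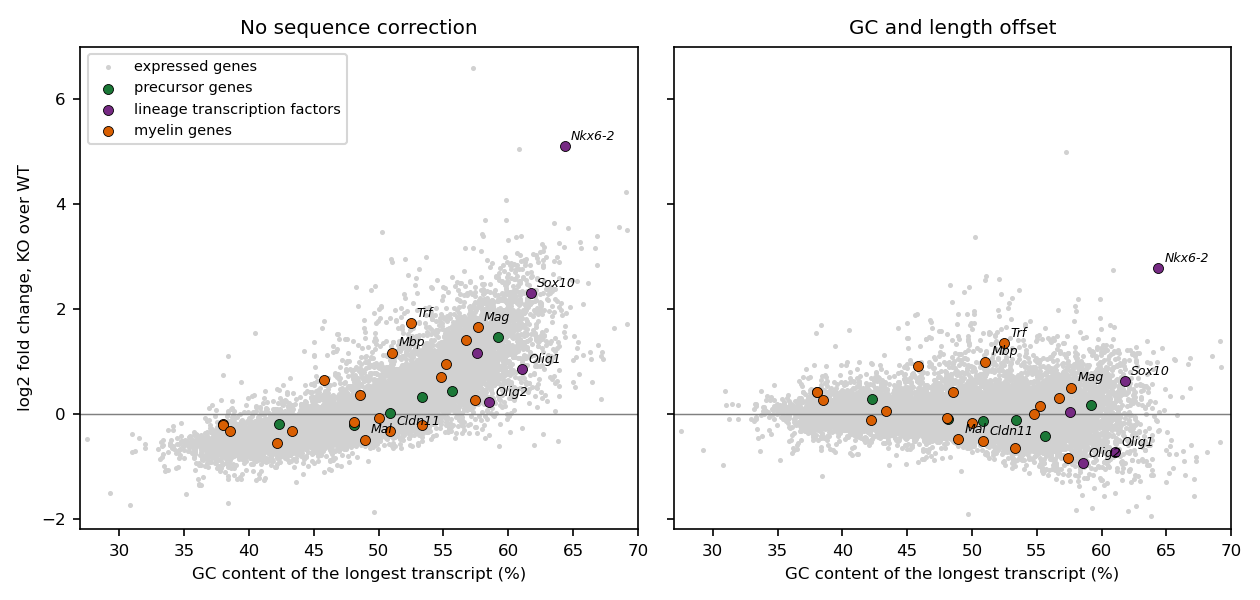
Log2 fold change, Bahd1-KO over Bahd1-WT (y axis), against the GC content of the longest transcript in percent (x axis), without (left) and with (right) the GC and length offset. Grey points are the 13283 expressed genes and coloured points the 30 members, which rise from left to right with the grey points in the left panel (Spearman 0.74 over members) and do not in the right one (-0.10).

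The Spearman coefficient between log2 fold change and transcript GC was 0.74 over the 30 members, beside 0.86 over the expressed genes. With the offset the values were -0.10 and -0.01. These are descriptions across genes that share the same 6 libraries. The 6 members with 35 to 45% GC had log2 fold changes from -0.55 to -0.19 and a median of -0.26, beside a median of -0.44 of expressed genes of that GC content. With the offset these medians were 0.27 and -0.02. The 5 members with 45 to 50% had values from -0.49 to 0.64 beside a median of -0.17, and the 8 with 50 to 55% had values from -0.34 to 1.72 beside a median of 0.30. The 8 members with 55 to 60% had values from 0.23 to 1.66 beside a median of 1.01. The 3 members with 60 to 65%, Olig1, Sox10 and Nkx6-2, had 0.85, 2.31 and 5.10 beside a median of 1.65. In each library the expressed genes with 55% GC or more were set against those under 45%, as the difference of their median log2 deviations from the mean of the 6 libraries. This difference was -0.48, -1.05 and -0.71 in the Bahd1-WT libraries and -0.09, 1.72 and 0.63 in the Bahd1-KO libraries. The order among Bahd1-KO libraries, replicate 2 above 3 above 1, was also the order of CPM in 15 of the 30 members, the 10 that were higher at an adjusted p under 0.1 and Gpr17, Bcas1, Nkx2-2, Hapln2 and Mobp. This order was found in 28.8% of all genes tested, 32.4% of expressed genes and 64.8% of expressed genes with a GC content of at least 50%. The part of this trend in the differences was not tested beyond the offset, and library and genotype cannot be told apart in it.

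The GC content of gene starts was read in the same way. Upstream windows of 250 bases before the start site were found for 22 of the 30 members (RefSeq, GRCm38.p6), and Gpr17, Sox10, Olig1, Bcas1, Mbp, Myrf, Fa2h and Trf had none. Over these 22, the Spearman coefficient of the log2 fold change was 0.30 with the GC content of the window and 0.66 with that of the transcript. Ugt8a had the window with the highest GC content of the 22, 76.8%, above a transcript with the lowest, and Nkx6-2 had 65.2%. Both windows are shown with CG dinucleotides in capitals, 32 for Ugt8a (chr3:125938653-125938902) and 26 for Nkx6-2 (chr7:139582798-139583047), both on the minus strand:

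Ugt8a: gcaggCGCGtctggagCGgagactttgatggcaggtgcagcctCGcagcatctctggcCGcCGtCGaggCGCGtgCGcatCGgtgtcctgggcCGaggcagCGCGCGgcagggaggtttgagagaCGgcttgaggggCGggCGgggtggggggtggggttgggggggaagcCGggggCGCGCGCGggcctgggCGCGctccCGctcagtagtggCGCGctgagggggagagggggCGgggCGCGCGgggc

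Nkx6-2: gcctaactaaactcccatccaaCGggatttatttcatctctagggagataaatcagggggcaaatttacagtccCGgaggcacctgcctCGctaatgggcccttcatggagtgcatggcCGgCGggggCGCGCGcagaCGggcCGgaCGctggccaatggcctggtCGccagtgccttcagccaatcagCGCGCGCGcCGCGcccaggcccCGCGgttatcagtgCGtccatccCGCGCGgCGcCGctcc

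The windows were searched on both strands for the letters CTGGCAC or CTGGTAC, which MYRF is known to bind. They were in the windows of Cnp, Hapln2, Mag and Mog, 4 of 22 members, and in 5 of their 28 windows (17.9%), beside 5.93% of all 32851 windows. The stretches of 60 bases around them are shown with the motif in capitals, in the direction of the gene (Cnp, plus strand, chr11:100574832-100574891, and on the minus strand Hapln2, chr3:88027622-88027681, Mag, chr7:30914898-30914957, and Mog, chr17:37023448-37023507):

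Cnp: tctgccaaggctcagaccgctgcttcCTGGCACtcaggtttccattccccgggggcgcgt

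Hapln2: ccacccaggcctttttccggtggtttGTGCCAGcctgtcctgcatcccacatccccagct

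Mag: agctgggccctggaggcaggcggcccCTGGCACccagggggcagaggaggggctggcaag

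Mog: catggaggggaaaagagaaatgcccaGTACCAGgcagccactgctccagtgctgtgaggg

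The log2 fold changes of the 4 genes were 0.70, 0.26, 1.66 and -0.08, and with the offset -0.0066, -0.84, 0.50 and -0.17, so they had no direction in common. The E-box letters CAGCTG, bound by OLIG2, were in the windows of 2 members, Aspa and Hapln2, 7.14% of the 28 windows beside 13.0% of all windows. The SOX core ACAAT was in those of 9 members, 11 of the 28 windows (39.3%) beside 27.7% of all windows.

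Per length of exon, Mobp, Mal and Mbp were the most abundant members in Bahd1-WT brains, at 237 ± 31.1, 196 ± 17.9 and 155 ± 12.4 CPM per kb (SD, n = 3). Mobp and Mal did not differ beyond their spread, and both were above Mbp. Bcas1 and Cldn11 followed at 91.7 ± 14.0 and 84.0 ± 5.20 CPM per kb, without a difference beyond their spread. The lowest were Nkx2-2, Cspg4 and Nkx6-2, at 1.38 ± 0.370, 0.266 ± 0.0684 and 0.122 ± 0.0776 CPM per kb. In Bahd1-KO brains Mbp was first, at 348 ± 164 CPM per kb, ahead of Mobp at 204 ± 6.51 and Mal at 140 ± 23.4, and the spread of Mbp reached down to Mobp. Nkx6-2 stood at place 30 in Bahd1-WT and place 27 in Bahd1-KO brains, there at 4.32 ± 5.64 CPM per kb. Exon lengths take in every annotated transcript of a gene, so a gene such as Mbp with long alternative transcripts is placed too low on this scale.

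**Figure D4:**
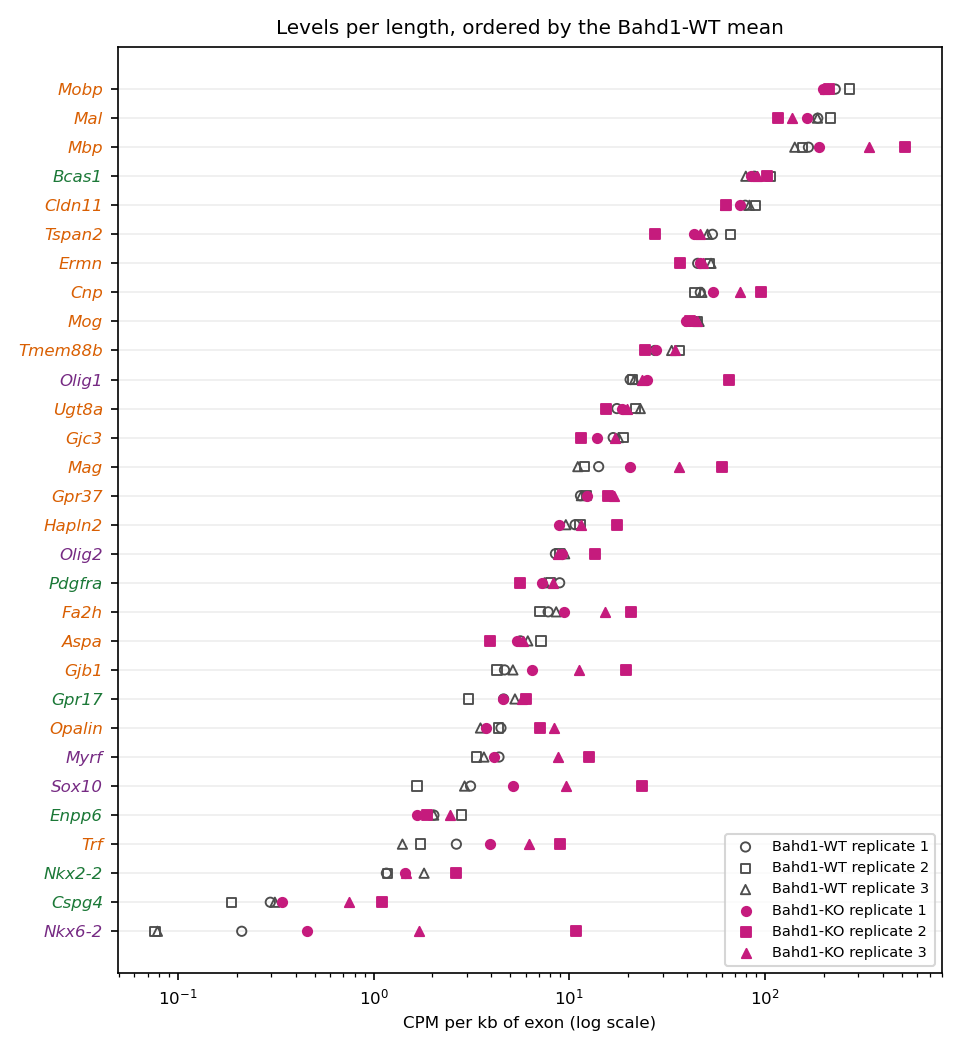
Level of each member in each brain in CPM per kb of exon (x axis, log scale), ordered by the Bahd1-WT mean. Open symbols are Bahd1-WT and filled symbols Bahd1-KO brains, and the levels span from 0.122 CPM per kb for Nkx6-2 to 237 CPM per kb for Mobp in Bahd1-WT brains.

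The members together took 0.529, 0.558 and 0.497% of the counts in Bahd1-WT libraries and 0.543, 0.874 and 0.710% in Bahd1-KO libraries. Bahd1-KO replicate 1 lay inside the Bahd1-WT range. The myelin genes took 0.444 to 0.498% against 0.485 to 0.784%, and in every Bahd1-KO library Mbp had the most counts of any member. The precursor genes took 0.0418 to 0.0499% against 0.0446 to 0.0515%, and in every library most of their counts were those of Bcas1. The lineage transcription factors took 0.00973 to 0.0111% against 0.0133 to 0.0382%, without overlap, with the highest share in Bahd1-KO replicate 2.

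The balance of precursor and myelin genes depended on the offset and on which precursor genes were taken. The mean log2 CPM of the 6 precursor genes minus that of the 19 myelin genes was -1.93, -2.11 and -1.82 in Bahd1-WT brains and -2.0, -1.88 and -1.97 in Bahd1-KO brains. The groups overlapped, with means of -1.95 ± 0.146 and -1.95 ± 0.0649 (SD, n = 3), and their difference of 0.0048 was under the mean SD within a group of 0.105. With the offset the values were -1.89, -1.96 and -1.72 against -1.91, -2.1 and -2.13, with means of -1.86 ± 0.124 and -2.05 ± 0.116 and again an overlap, and the difference of -0.19 was above both of these SDs. With Pdgfra and Cspg4 alone as precursor genes the difference between genotypes was 0.28 without the offset. The mean log2 CPM of the transcription factors was 3.18 ± 0.250 in Bahd1-WT brains and 4.78 ± 1.04 in Bahd1-KO brains, and with the offset 3.85 ± 0.0157 and 4.11 ± 0.232. No test was made on these means, since the lists were chosen with results of these data known.

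**Figure D5:**
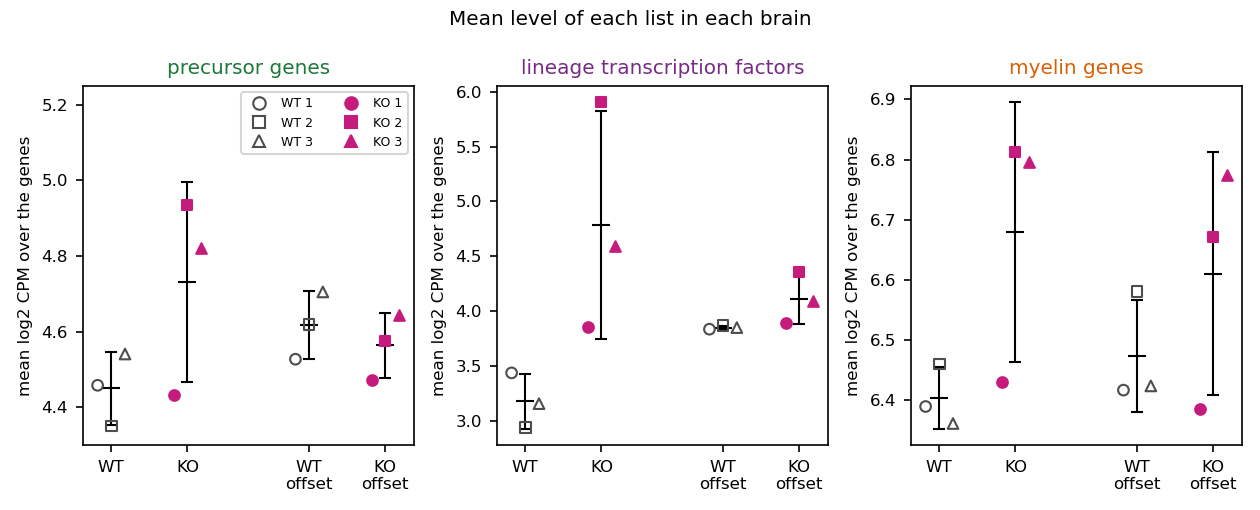
Mean log2 CPM over the genes of each list (y axis) in each brain, without and with the GC and length offset, with horizontal lines at the group means and bars of 1 SD (n = 3). Open symbols are Bahd1-WT and filled symbols Bahd1-KO brains, circles, squares and triangles are replicates 1, 2 and 3, and the 3 panels have different y axes.

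Other genes of the lineage were read in 6 lists, and no gene of them passed an adjusted p of 0.05 in edgeR. At an unadjusted p under 0.05 in edgeR each list had 2 to 7 genes higher and 0 to 3 lower, against 19.9% and 12% of all genes tested. DESeq2 called 1 to 6 of each list higher and 0 to 1 lower at an adjusted p under 0.05, against 17.7% and 3.56%. The counts at an adjusted p under 0.1 given for each list are from edgeR unless DESeq2 is named. Those from all 6 libraries without the offset stand beside 14.7% higher and 4.77% lower of all genes tested, and 20.8% and 4.74% of expressed genes. Counts with the offset stand beside 3.61% and 2.38% of genes, and counts without Bahd1-KO replicate 2 beside 8.94% and 2.27%. With the replicate block and no offset the counts were 0 in all 6 lists. Of 12 other precursor genes, 1 was higher and 1 lower at an adjusted p under 0.1. C1ql1, a C1q-like secreted protein, and Matn4, a matrilin of the matrix, had the largest log2 fold changes, 2.1 (SE 0.52) and 1.01 (SE 0.41), and -0.02 and 0.81 with the offset. Vcan, a matrix proteoglycan, and Pcdh15, a protocadherin, had the smallest, -0.66 (SE 0.20) and -0.61 (SE 0.21), and -0.26 and -0.19 with the offset. With the offset, 11 of the 12 were negative in edgeR, with a median of -0.13, and 9 in DESeq2. When Bahd1-KO replicate 2 was also left out of the edgeR fit, 7 were negative and 5 positive, with a median of -0.016.

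Of 10 other lineage regulators, 2 were higher and 1 lower at an adjusted p under 0.1. With the offset 0 were higher and 1 was lower, against 3.61% and 2.38% of genes. The 1 lower was Zfp536, named here after its values were seen, which went from 0.07 to -0.85 (adjusted p = 0.0863 in edgeR). The 10 regulators ran from Id4 and Zeb2, at -0.61 and -0.39, to Lingo1 and Hes5, at 1.47 and 1.88. With the offset these 4 had -0.22, 0.20, 0.19 and 0.14. ID4 and HES5 hold precursors back from differentiating, and ZEB2 promotes it. Of 18 other genes of mature oligodendrocytes, 6 were higher and 0 lower at an adjusted p under 0.1. With the offset 2 were higher and 3 lower in edgeR, against 3.61% and 2.38% of genes. Without Bahd1-KO replicate 2 and without the offset the count fell to 3 higher and 0 lower, against 8.94% and 2.27% of genes. In that fit it was 1 higher for the axon-glia and for the growth signal genes. The extremes of the mature genes were Ppp1r14a and Cryab, at 1.90 (SE 0.59) and 1.78 (SE 0.38), and Anln and Enpp2, at -0.43 (SE 0.15) and -0.40 (SE 0.17). With the offset Cryab, the small heat shock protein alpha-B crystallin, kept a log2 fold change of 1.00 (SE 0.20, adjusted p = 0.0782 in edgeR), while Ppp1r14a had 0.02 (SE 0.22).

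Of 11 enzymes of myelin sphingolipids, 3 were higher and 0 lower at an adjusted p under 0.1. Gal3st1, the sulfotransferase that makes sulfatide, had 1.84, 0.761 and 1.94 CPM in Bahd1-WT brains and 2.57, 14.6 and 5.39 CPM in Bahd1-KO brains. Its log2 fold change was 2.31 (SE 0.62) without and 0.80 (SE 0.31, adjusted p = 0.183 in edgeR) with the offset, and Arsa, which removes the sulfate again, had 0.96 (SE 0.26) and 0.01 (SE 0.11). Kdsr and Elovl7 were the lowest, at -0.36 and -0.34, and both were at 0.09 with the offset. With the offset 1 of the 11 was higher and 0 lower in edgeR at this threshold, against 3.61% and 2.38% of genes. The 1 higher was Galc, a galactosylceramidase, named here after its values were seen (0.49, SE 0.12, adjusted p = 0.0874). Of 9 genes of the axon-glia junction, 3 were higher and 0 lower at an adjusted p under 0.1, with Cadm4 at 1.30 and Cntnap1 at 1.14 and the potassium channels Kcna1 and Kcna2 at -0.37 and -0.29. With the offset these 4 had -0.11, 0.22, -0.43 and -0.03, and 0 of 9 had an adjusted p under 0.1 in edgeR and 1 was higher in DESeq2, where 9.74% of all genes with an adjusted p were higher and 7.13% lower at that threshold. Of 10 growth signals of precursors, 3 were higher and 0 lower. The ligands Pdgfb and Pdgfa had 1.75 (SE 0.33) and 0.78 (SE 0.24), and 0.40 (SE 0.17) and 0.45 (SE 0.15) with the offset, while Igf1 and Fgf2 had -0.52 and -0.51, and 0.06 and -0.10 with the offset. With the offset 0 of the 10 had an adjusted p under 0.1 in edgeR, and 2 were higher in DESeq2, against the same 9.74%. Pdgfa and Pdgfb were higher in every Bahd1-KO brain than in every Bahd1-WT brain, as were 20.6% of all genes tested. Another PDGF ligand gene, Pdgfc, named here after its values were seen, overlapped between the groups, with log2 fold changes of -0.27 (SE 0.25) and, with the offset, -0.38 (SE 0.22).

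Markers of other cell types were summed as CPM in each brain. The sums overlapped between the groups for astrocytes (6118 to 6689 in Bahd1-WT and 5105 to 6214 in Bahd1-KO brains), microglia (312 to 358 and 280 to 334), neurons (7314 to 8298 and 6379 to 7945), endothelium (139 to 153 and 141 to 179) and pericytes with smooth muscle (225 to 285 and 170 to 234). Each sum was carried by its most abundant genes, and single markers moved apart from it. At an adjusted p under 0.1 in edgeR 2 of 7 astrocyte markers (Aldh1l1 and Aldoc, log2 fold changes of 1.03 and 0.88), 2 of 6 microglia markers (Tmem119 and C1qa, 1.37 and 0.77), 0 of 7 neuron markers (2 higher and 1 lower at an unadjusted p under 0.05, and 2 higher and 0 lower at an adjusted p under 0.1 in DESeq2, against 21.6% and 7.41% of all genes there), 1 of 5 endothelial markers (Cldn5, 2.56) and 1 of 5 mural markers (Acta2) were higher and none lower, against 14.7% and 4.77% of all genes tested and 20.8% and 4.74% of expressed genes. With the offset the log2 fold changes of these 6 genes were 0.40, 0.59, 0.16, -0.62, 0.86 and, for Acta2, 0.87. With the offset, 3.61% of genes were higher and 2.38% lower at an adjusted p under 0.1 in edgeR. The calls with the offset among these 5 lists were Aldoc and Acta2 higher and C1qa lower (adjusted p = 0.0849 in edgeR). Among neuron markers they were Snap25 and Stmn2 higher (0.42 and 0.62) and Rbfox3 lower (-0.45). These names were given after their values were seen. The meningeal fibroblast sum was lower in Bahd1-KO brains (76.5 to 86.5 and 62.7 to 73.6). Most of it was Dcn, with a log2 fold change of -0.42 and of 0.20 with the offset, and the median over the 5 markers was -0.32, and -0.47 with the offset. Lum and Col3a1 had -0.61 and -0.32, and -0.20 and -0.63 with the offset, while Col1a1 and Col1a2 had 0.76 and 0.17, and -0.47 and -0.53 with the offset. The choroid plexus sum was higher (282 to 375 and 459 to 1080), most of it Ttr. Ttr had a log2 fold change of 1.29 (adjusted p = 0.0634 in edgeR) and of 1.43 (adjusted p = 0.0818) with the offset. Folr1, Kl, Clic6 and Kcnj13 had values from -0.40 to 0.66, and from -0.42 to -0.04 with the offset. The part of the choroid plexus in the values of Trf was not tested. Markers of Schwann cells, the myelinating cells of peripheral nerve, summed to 2.98 to 4.18 and 3.87 to 5.17 CPM, with Pmp2 at 0 to 2 counts, against 1202 CPM or more for Mbp. Lung markers summed to 2.30 to 108 CPM in Bahd1-WT brains and 0.506 to 1.42 CPM in Bahd1-KO brains. All 5 were lower at an adjusted p under 0.1 in edgeR with and without the offset, and their part in any value was not tested.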

How the data were processed

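The authors deposited a table of whole-number counts per gene, 1 column for each of the 6 libraries, with no normalization. Libraries were made from polyadenylated RNA of hemibrains with a strand-specific kit. The submitters' processing notes name cutadapt 1.11, STAR 2.5.0a, featureCounts 1.4.6-p3 and the GRCm38 build. Each brain came from a separate mouse.

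The counts were fitted with edgeR 4.0.16 (TMM factors, glmQLFit and glmQLFTest, genotype as the single term, genes whose counts summed to 10 or more), with Benjamini-Hochberg adjustment over all 23975 genes tested, and members were read out of that fit. Each SE was taken from the edgeR test, as the absolute log2 fold change over the square root of the F statistic. DESeq2 1.42.0 was an alternative. For the GC and length offset, log2 CPM was regressed within each library on natural splines over expressed genes. The splines were of the GC content of the longest transcript (5 degrees of freedom) and the log exon length of the gene (3 degrees of freedom). Each fitted trend less its mean over libraries entered the model. Positions, lengths and GC content came from GENCODE M21 (GRCm38). Log2 CPM used a prior count of 2. Replicate numbers did not pair the samples. The scripts were tested on simulated data. All 30 members were named, and of the other lists the genes with the 2 largest and 2 smallest log2 fold changes. The members, lists and tests were chosen with earlier results of these data known. Depth limits the rarest members, since 3 counts equal 0.0315 to 0.069 CPM here.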

Additional observations from a re-analysis of the deposited data

How the results depend on the processing

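The alternatives were other scaling factors, count filters, tests and offsets and the left-out replicates, and 1, the offset without Bahd1-KO replicate 2, was chosen after the data were seen. The count of members called at an adjusted p under 0.05 depended on the test and the filter. It was 0 with TMM factors in edgeR, with DESeq2 size factors, with upper-quartile factors, with filterByExpr and with the offset in edgeR. It was 6 with total counts alone (2 transcription factors and 4 myelin genes), where 2116 of all 23975 genes were called higher and 137 lower. It was 10 when genes with a sum of at least 1 were kept, in DESeq2 with the normal prior and in DESeq2 without it, each with 1 precursor gene, 3 transcription factors and 6 myelin genes. Of all genes, 3078 were called higher and 533 lower of 32795 with the sum of at least 1, 3423 and 684 in DESeq2 with the prior and 3425 and 687 without it (of 19308 with an adjusted p). It was 13 in DESeq2 with the offset (4 transcription factors and 9 myelin genes), beside 1323 higher and 847 lower of 17894 genes, and leaving out 1 replicate gave 0 to 14, the highest without Bahd1-KO replicate 1 (precursor genes 0 to 1, transcription factors 0 to 4, myelin genes 0 to 9), where 4681 of 23690 genes were called higher and 2432 lower. At an adjusted p under 0.1 it was 11, and at an unadjusted p under 0.05 it was 14. The cause of these differences was not tested.

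The members' median log2 fold change of 0.29 was 0.14 with upper-quartile factors, which moved the median of all genes to -0.20. It was 0.041 with the offset, 0.026 with the offset and the replicate block, 0.063 in DESeq2 with the offset, 0.042 with the offset and without Bahd1-KO replicate 2, and 0.038 to 0.48 when 1 replicate was left out, lowest without Bahd1-KO replicate 2. The difference between genotypes in precursor minus myelin level, 0.0048, was -0.19 with the offset with or without the block, -0.21 in DESeq2 with the offset, -0.17 with the offset and without Bahd1-KO replicate 2, and 0.28 with Pdgfra and Cspg4 alone. Leaving out 1 replicate gave -0.073 to 0.072.

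With the GC and length offset, 12 members changed sign, to -0.13 for Gpr17, -0.14 for Bcas1, 0.27 for Enpp6, -0.43 for Nkx2-2, -0.73 for Olig1, -0.94 for Olig2, -0.0066 for Cnp, 0.42 for Ermn, -0.84 for Hapln2, 0.41 for Ugt8a, 0.27 for Aspa and 0.050 for Gjc3. With the offset and the replicate block, 12 members changed sign, to -0.10 for Gpr17, -0.13 for Bcas1, 0.24 for Enpp6, -0.40 for Nkx2-2, -0.73 for Olig1, -0.96 for Olig2, -0.0062 for Cnp, 0.41 for Ermn, -0.83 for Hapln2, 0.40 for Ugt8a, 0.26 for Aspa and 0.030 for Gjc3. In DESeq2 with the offset, 11 members changed sign, to -0.11 for Gpr17, -0.12 for Bcas1, 0.30 for Enpp6, -0.41 for Nkx2-2, -0.71 for Olig1, -0.92 for Olig2, 0.45 for Ermn, -0.82 for Hapln2, 0.44 for Ugt8a, 0.29 for Aspa and 0.072 for Gjc3. With the offset and without Bahd1-KO replicate 2, 14 members changed sign, to 0.0066 for Pdgfra, -0.068 for Gpr17, -0.17 for Bcas1, 0.16 for Enpp6, -0.47 for Nkx2-2, -0.73 for Olig1, -0.78 for Olig2, -0.0071 for Myrf, 0.35 for Ermn, -0.78 for Hapln2, 0.019 for Tmem88b, 0.31 for Ugt8a, 0.24 for Aspa and 0.066 for Gjc3. Bcas1 was -0.14 with upper-quartile factors and Mog 0.0016 with total counts alone. Leaving out 1 replicate gave -0.080 to 0.14 for Bcas1, -0.0015 to 0.35 for Olig2 and -0.054 to 0.49 for Hapln2.

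Samples with the same replicate number deviated in opposite directions (correlations of -0.64, -0.66 and -0.14), so the numbers were not taken as pairs. With the replicate block 0 members were called at an adjusted p under 0.05, as without it, and 0 at an adjusted p under 0.1, and the members' median log2 fold change was 0.27.

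With 3 brains in a group and Bahd1-KO libraries that spread widely in GC trend, genotype and library cannot be separated for genes of high or low GC content. Without the offset the median log2 fold change of expressed genes was -0.44 at 35 to 45% GC and 1.65 at 60 to 65% GC. The 3 counts taken as the floor equal at most 0.069 CPM, which touches Nkx6-2 in Bahd1-WT brains most closely, with as few as 9 counts.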
